A study of Mus musculus with 8 samples.

Results

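The RNA response of mouse embryonic stem cells (ESCs) to acute loss of YEATS2 was examined across all genes by comparing the 3 libraries titled Yeats2 auxin with the 2 titled Control, 5 of the 8 libraries of the series. The other 3 libraries came from ESCs depleted of ZZZ3 and served to estimate the spread and for a direct comparison. All cultures were ESCs kept on gelatin in serum with leukaemia inhibitory factor and the pair of kinase inhibitors CHIR99021 and PD0325901, under G418, which selects for the TIR1 transgene. In the Yeats2 auxin group YEATS2 carried an auxin-inducible degron, and auxin (indole-3-acetic acid) was given at 500 µM for 24 h. From which line the controls were taken, and whether solvent or auxin was added to them, is not in the labels. The study's supplement describes its YEATS2 estimates as tagged cells given DMSO, the solvent, or auxin, and its methods call the reference WT. Unless the controls also had auxin, loss of YEATS2 and exposure to auxin cannot be told apart in this comparison. A difference of line, if there was one, cannot be told apart from loss of YEATS2 either. The number of clones or separate cultures behind the libraries is not stated in the labels. P values measure the spread between these libraries, which may be technical.

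YEATS2 is a subunit of the ATAC (Ada-two-A-containing) complex, a histone acetyltransferase coactivator that also holds ZZZ3, MBIP, WDR5, DR1, TADA2A and KAT14, and that shares the catalytic module of GCN5 (*Kat2a*) or PCAF (*Kat2b*), TADA3 and SGF29 with the related SAGA complex. Its YEATS domain binds acylated lysines of histone tails. A degron tag recruits the TIR1 ubiquitin ligase when auxin is added, so that the tagged protein is degraded while the gene and its mRNA remain. ATAC and SAGA are known as coactivators of transcription by RNA polymerase II, and ATAC occupies promoters of genes for ribosomal proteins and translation factors.

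The controls had 20750126 and 22305301 reads assigned to genes, and the Yeats2 auxin libraries had 25957155, 27884704 and 25260238. Levels are given as counts per 1000000 assigned reads (CPM), with library sizes adjusted by TMM (trimmed mean of M values) factors between 0.9776 and 1.045 over the 8 libraries. Control replicate 2 and Yeats2 auxin replicate 2 stood apart from the other 3 libraries in the share of reads that aligned to several places, 51.7% and 51.2% against 46.4% to 46.9%. Raw counts of Yeats2 auxin replicates 1 and 3 differed by a chi-square of 3.85 per gene, the smallest value of any pair within a group. Each differed from replicate 2 by 22.5 or more, and the controls differed from each other by 24.9, so no library was a copy of another. Whether Yeats2 auxin replicates 1 and 3 came from separate cultures is not stated in the labels. The libraries had markers of pluripotent stem cells. *Nanog* had 561 to 772 CPM and *Sox2* 301 to 353 CPM in all 5, while the fibroblast marker *Dcn* was at 0 and the fibroblast collagens *Col1a1* and *Col3a1* stayed at or below 0.309 CPM.

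Of 55401 genes counted, 17532 passed the expression filter (edgeR's filterByExpr) and were tested. In the Yeats2 auxin libraries 58 genes rose and 20 fell at an adjusted P under 0.05, which are 0.331% and 0.114% of the genes tested and 0.445% together. Differentially expressed genes (DEGs), which also changed by more than 1 in log2 fold change (FC), numbered 36 higher (0.205%) and 10 lower (0.057%). All 78 called genes had no overlap between the 2 control and the 3 Yeats2 auxin libraries, but so did 19.3% of all genes tested in the upward and 21.0% in the downward direction. An unadjusted P under 0.05 was reached by 2565 genes, 1341 higher and 1224 lower, and the median log2 FC over all genes tested was -0.01. The smallest adjusted P was 0.00468, and the threshold ran between *Crhr2* (0.0498) on the inside and *Gk* and *Vil1* (both 0.0513) on the outside.

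**Figure D1:**
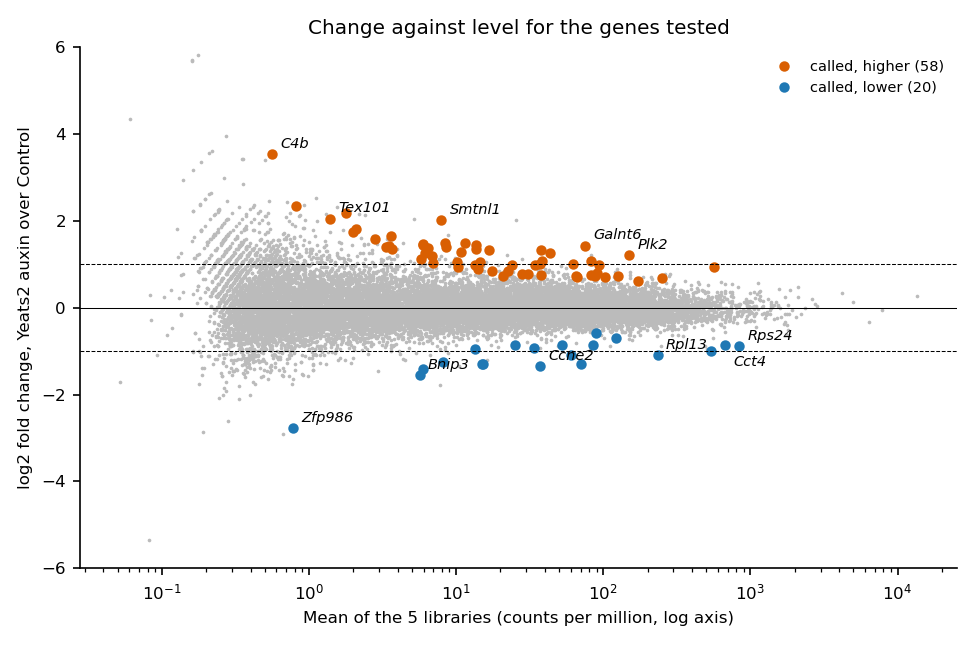
log2 fold change of Yeats2 auxin over Control (y axis) against the mean CPM of the 5 libraries (x axis, log scale) for the 17532 genes tested. Orange points are the 58 genes that rose, blue points the 20 that fell and grey points the genes not called. Dashed lines mark a log2 FC of 1 and -1, and 2 genes lie beyond the axis limit of 6.

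The calls rested on each of the 5 libraries compared. With Control replicate 1 or Yeats2 auxin replicate 3 left out, edgeR called 0 genes, with 1129 and 1904 genes at an unadjusted P under 0.05. Without Control replicate 2 it called 3 genes, without Yeats2 auxin replicate 1 it called 2, and without Yeats2 auxin replicate 2 it called 4. DESeq2 called 398 genes and limma-voom 375 on all libraries, and each of these lists held 76 of the 78. The sign of the change of the 78 genes was kept in every alternative in which they were tested. Since none of the 78 had overlapping groups, leaving out a library could hardly reverse a sign, so the kept signs are no separate support.

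The genes that rose had levels near those of all genes tested, and the genes that fell were more strongly expressed. Mean levels over the 5 libraries had a median of 14.3 CPM for the genes that rose, 44.8 CPM for those that fell and 10.8 CPM over all genes tested. In the controls alone the medians were 8.78, 64.9 and 10.7 CPM. A control mean under 5 CPM was found for 21 of the 58 genes that rose (36.2%), all of them DEGs, and for 41.0% of all genes tested. The 2 groups also differed in base composition. Median exon GC content was 53.3% for the genes that rose and 44.9% for those that fell, beside 48.8% over all genes tested.

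Base composition was also where Control replicate 1 stood apart among the 5 libraries compared. Genes were ranked by the GC content of their exons and split into quintiles, and for each library the median log2 CPM relative to the mean of the 5 was compared between the top and the bottom quintile. This difference was -0.52 in Control replicate 1 and 0.04 in Control replicate 2, and 0.16, 0.27 and 0.07 in Yeats2 auxin replicates 1, 2 and 3. In Zzz3 auxin replicates 1, 2 and 3, which entered the estimate of the spread, it was 0.28, 0.09 and 0.59. In the comparison of Yeats2 auxin with Control the median log2 FC ran from -0.19 in the quintile poorest in GC to 0.20 in the richest. Of the 58 genes that rose, 22 lay in the richest quintile and 2 in the poorest, and of the 20 that fell, 0 and 6 did.

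**Figure D2:**
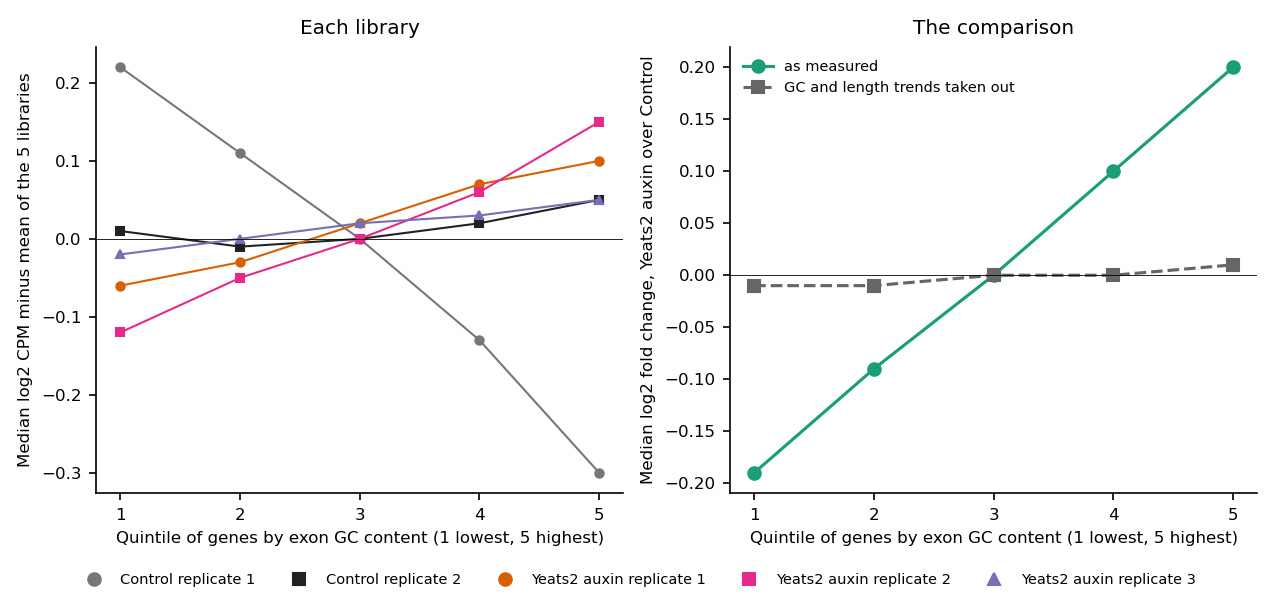
Left, median log2 CPM of each library minus the mean of the 5 libraries, by quintile of genes ranked on exon GC content. Control replicate 1 runs from 0.22 to -0.30 while the other 4 libraries stay between -0.12 and 0.15. Right, median log2 FC of Yeats2 auxin over Control in the same quintiles, as measured (circles, -0.19 to 0.20) and after the trends on GC content and exon length were taken out of each library (squares, -0.01 to 0.01).

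After the trends on GC content and exon length had been taken out of each library, edgeR called 130 genes (0.742%), 84 higher and 46 lower. Of the 84, 18 lay in the quintile richest in GC and 13 in the poorest, and of the 46, 6 and 5 did. Of the 78 genes, 65 were still called, 47 of the 58 that rose and 18 of the 20 that fell. The 13 lost calls were *Orc6* and *Nae1* among the falls and *Plxna1*, *Slc12a4*, *Pidd1*, *Phlda3*, *Fam78a*, *Eppk1*, *9530053A07Rik*, *Crhr2*, *Ptp4a3*, *Snx20* and *C4a* among the rises. With the correction in place and Control replicate 1 or Control replicate 2 left out, 0 genes were called, with 1242 and 1771 at an unadjusted P under 0.05.

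*Yeats2* itself (ENSMUSG00000041215, GRCm38 chromosome 16, 20141063 to 20232573, plus strand) had 90.9 and 95.8 CPM in the controls and 77.3, 103 and 43.7 CPM in the Yeats2 auxin libraries. Replicate 3 was low, replicate 2 lay above both controls, and the groups overlapped (log2 FC -0.32 ± 0.26 SE, adjusted P = 0.605). Since the degron acts on the protein, the mRNA does not show whether YEATS2 was removed. *Zzz3*, which encodes the subunit removed in the other depletion, had 186 and 182 CPM in the controls and 189, 183 and 191 CPM after YEATS2 depletion (log2 FC 0.03 ± 0.14).

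mRNAs of the other ATAC subunits were near their control levels. None of the 7 ATAC genes was called by edgeR, DESeq2 or limma-voom on all 8 libraries, 1 had an unadjusted P under 0.05, and their median log2 FC was -0.11 (0.05 after the correction). *Kat14*, which encodes the second acetyltransferase of ATAC, had the largest difference, with 54.8 and 61.2 CPM in the controls and 76.1, 86.0 and 78.9 CPM in Yeats2 auxin (log2 FC 0.47 ± 0.18, adjusted P = 0.269). It was called by edgeR when only the compared groups were fitted (log2 FC 0.49, adjusted P = 0.049), a fit with 454 calls in all. *Wdr5*, whose product is shared with histone methyltransferase complexes, differed by 0.10 ± 0.11, *Tada2a* by -0.11 ± 0.13 and *Dr1* by -0.21 ± 0.13. *Mbip* differed by -0.15 ± 0.12 as measured and by 0.05 after the correction, so its direction changed with the correction.

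The acetyltransferase module shared with SAGA was not called either. Its 4 genes had a median log2 FC of 0.27, 0.14 after the correction, and 3 had an unadjusted P under 0.05. The median was 0.12 without Control replicate 1 and 0.43 without Control replicate 2. *Kat2a* had 83.9 and 100 CPM in the controls and 128, 111 and 120 CPM in Yeats2 auxin, and *Kat2b*, which encodes the alternative catalytic subunit, had 154 and 148 CPM against 118, 114 and 123 CPM. These differences of 0.38 ± 0.13 and -0.35 ± 0.10 had adjusted P of 0.219 and 0.161. Of 18 genes for SAGA subunits outside this shared module, edgeR called 0 and DESeq2 and limma-voom 1 each, and the median was -0.07. An unadjusted P under 0.05 was reached by 6 of the 18, beside 2565 of all 17532 genes tested. The largest differences among the 18 were those of *Supt3* (0.57 ± 0.25) and *Tada1* (-0.51 ± 0.19).

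Among the genes that rose, *Galnt6* and *Plk2* had the smallest adjusted P. *Galnt6* (ENSMUSG00000037280, chromosome 15, 100691813 to 100729376, minus strand), which encodes an enzyme that starts mucin-type O-glycosylation, had 33.6 and 40.7 CPM in the controls and 90.2, 113 and 97.3 CPM in Yeats2 auxin (log2 FC 1.43 ± 0.14, adjusted P = 0.00468). Every Yeats2 auxin library was more than 2-fold above the higher control. *Smtnl1*, a smoothelin-like gene of muscle, rose from 3.01 and 2.59 CPM to 12.6, 9.70 and 11.7 CPM (log2 FC 2.01 ± 0.28, adjusted P = 0.0204).

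The other rises of the same size began from low levels. *Tex101*, which encodes a surface glycoprotein of germ cells, rose from 0.493 and 0.454 CPM to 1.35, 2.24 and 2.33 CPM (log2 FC 2.05 ± 0.36). *Trim66*, which encodes a chromatin reader with a bromodomain, rose from 1.68 and 1.45 CPM to 4.72, 4.16 and 6.01 CPM (log2 FC 1.66 ± 0.26), and *Ptpn7*, a tyrosine phosphatase of blood cells, rose from 0.937 and 1.59 CPM to 3.83, 3.76 and 3.88 CPM (log2 FC 1.59 ± 0.27). *Pgbd5*, derived from a piggyBac transposase, rose by 1.49 ± 0.23, *Zbtb7c*, a zinc finger gene of the BTB class, by 1.45 ± 0.22, and *Mlana*, a melanosome gene, by 1.44 ± 0.20. *Hmcn2*, which encodes an extracellular matrix protein, rose by 1.39 ± 0.21. Control and Yeats2 auxin libraries did not overlap for any of these genes, which was a condition for naming them.

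Several rises have an uncertain source of reads. *Gm10532* (2.17 ± 0.39), *Gm40968* (1.82 ± 0.32) and *Gm17210* (1.47 ± 0.27) are noncoding genes that overlap *Ctif*, *Gm47947* and *Parg* on the opposite strand, and *Tap1* (1.42 ± 0.24), which encodes a transporter of antigenic peptides, overlaps *Psmb9*. *Galnt6* overlaps *Galnt6os* in the same way, and *Zbtb7c* overlaps *2900057B20Rik* and *AC164010.1*. The strand setting of the counting is not stated, so reads from such partners cannot be told apart. An annotated gene on the opposite strand overlapped 21 of the 58 genes that rose, 8 of the 20 that fell and 7087 of all 17532 tested. *C4a*, which rose by 1.74 ± 0.32, and *C4b*, which had 0.0987 and 0.0454 CPM in the controls and 0.735, 1.19 and 0.712 CPM in Yeats2 auxin, are near-identical complement genes, so the split of reads between them is uncertain. The calls of *C4a* and *Snx20* (1.48 ± 0.28), a sorting nexin gene, were lost after the correction (adjusted P = 0.0564 and 0.0502), with corrected log2 FC of 1.55 and 1.36.

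**Figure D3:**
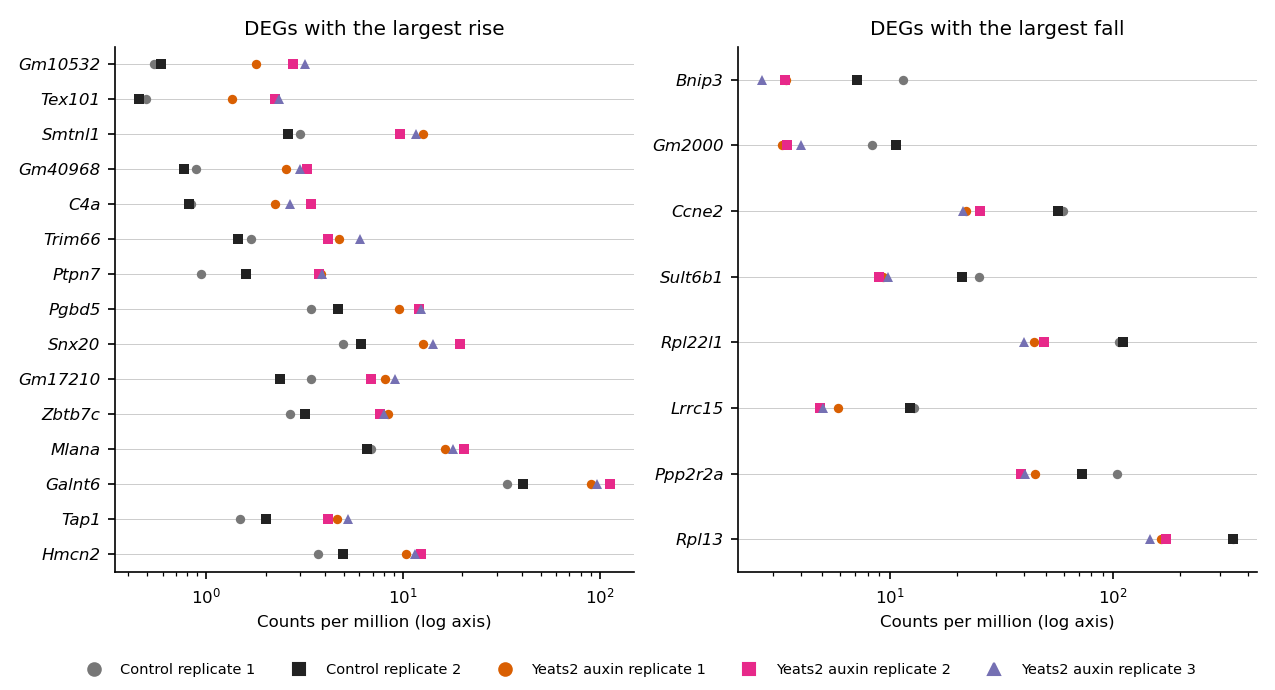
CPM (x axis, log scale) in each of the 5 libraries for the 15 DEGs with the largest rise (left) and the 8 with the largest fall (right) that had 1 CPM or more on average, a symbol, non-overlapping groups and no annotation as a pseudogene. Grey and black symbols are the controls and coloured symbols the Yeats2 auxin libraries. By this choice the coloured symbols lie to the same side of both controls in every row, for example 90.2 to 113 against 33.6 and 40.7 CPM for *Galnt6*.

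The strongest call among the falls was *Ccne2* (ENSMUSG00000028212, chromosome 4, 11191351 to 11204779, plus strand), which encodes cyclin E2, an activator of CDK2 at entry into S phase. It had 59.7 and 56.6 CPM in the controls and 21.9, 25.4 and 21.3 CPM in Yeats2 auxin (log2 FC -1.35 ± 0.13, adjusted P = 0.00468), and the fall was -1.11 after the correction. *Ccne2* overlaps *Ints8* on the opposite strand and has an exon GC content of 37.6%, in the poorest quintile. *Bnip3*, which encodes a receptor for the removal of mitochondria and is a known target of hypoxia-inducible factor, fell from 11.5 and 7.17 CPM to 3.44, 3.40 and 2.69 CPM (log2 FC -1.55 ± 0.25, adjusted P = 0.0284). *Ppp2r2a*, which encodes a regulatory subunit of protein phosphatase 2A, fell from 104 and 72.6 CPM to 44.6, 38.9 and 40.4 CPM (log2 FC -1.10 ± 0.16).

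The other named falls left no overlap between the groups either, as was the case for all 78 called genes. *Rpl22l1*, the paralog of the ribosomal protein gene *Rpl22*, fell from 106 and 111 CPM to 44.3, 49.1 and 39.8 CPM (log2 FC -1.29 ± 0.20). *Sult6b1*, a sulfotransferase gene, fell by 1.30 on the log2 scale, *Lrrc15*, which encodes a membrane protein with leucine-rich repeats, fell by 1.26, and the predicted gene *Gm2000* fell by 1.41, with adjusted P of 0.0204 each. *Zfp986*, a zinc finger gene with a mean below 1 CPM and close relatives nearby, had the largest fall of all called genes, from 1.97 and 1.22 CPM to 0.232, 0.253 and 0.198 CPM. Among the strongly expressed called genes, *Cct4*, which encodes a subunit of the cytosolic chaperonin, fell from 945 and 890 CPM to 481, 543 and 481 CPM (log2 FC -0.87 ± 0.14, adjusted P = 0.0319).

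Targets of the transcription factor p53 were mostly higher. p53 is held at a low level by the ubiquitin ligase MDM2, which is itself encoded by a p53 target, and ESCs express p53 and many of its targets without added damage. Of 28 target genes tested, 5 rose, 0 fell and 26 had a positive log2 FC, while 0.331% of all genes tested rose. An unadjusted P under 0.05 in the upward direction was reached by 20 of the 28, beside 1341 of all 17532 genes tested. The median log2 FC of the 28 was 0.54, beside -0.01 over all genes tested, and 0.53 after the correction. It was 0.55 and 0.56 without Control replicate 1 or 2, and 0.46, 0.59 and 0.50 in the 3 Yeats2 auxin libraries, each relative to the mean of the controls. After the correction 8 of the 28 were called, and DESeq2 and limma-voom called 12 and 9.

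*Plk2*, which encodes a polo-like kinase, had the largest rise of the list, from 83.7 and 84.5 CPM to 180, 203 and 200 CPM (log2 FC 1.21 ± 0.13, adjusted P = 0.00799). *Ptpn14*, a tyrosine phosphatase gene, rose from 50.4 and 47.5 CPM to 100, 101 and 110 CPM (log2 FC 1.08 ± 0.14, adjusted P = 0.0204). *Btg2*, an antiproliferative gene, rose from 73.6 and 74.3 CPM to 110, 131 and 120 CPM (0.70 ± 0.13), and *Mdm2* from 191 and 177 CPM to 287, 287 and 316 CPM (0.69 ± 0.13). In these 4 genes the controls lay close together and below every Yeats2 auxin library, and a gap between the groups was present in every called gene. *Phlda3*, which encodes an inhibitor of AKT signalling, rose from 54.2 and 71 CPM to 104, 123 and 101 CPM (0.80 ± 0.14), but with an exon GC content of 61.8% its call was lost after the correction (adjusted P = 0.119).

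The members that were not called varied in level and overlap. *Cdkn1a*, which encodes the cell cycle inhibitor p21, had 78.2 and 53.3 CPM in the controls and 75.1, 73.2 and 71.7 CPM in Yeats2 auxin, with the controls on both sides of the other 3 (log2 FC 0.16 ± 0.31, adjusted P = 0.846). *Bbc3*, which encodes the apoptosis inducer PUMA, had 3.45 and 4.17 against 6.65, 9.19 and 6.61 CPM (0.97 ± 0.28, adjusted P = 0.155), and *Bax* 97.3 and 146 against 159, 195 and 150 CPM (0.47 ± 0.17, adjusted P = 0.251). *Rrm2b* and *Plk3* had the only negative values, both -0.27. After the correction, *Ccng1* (0.55), *Polk* (0.61), *Eda2r* (0.69) and *Trp53inp1* (0.77) joined *Plk2*, *Ptpn14*, *Btg2* and *Mdm2* among the called genes, and the first 4 have 42.5% GC or less in their exons.

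**Figure D4:**
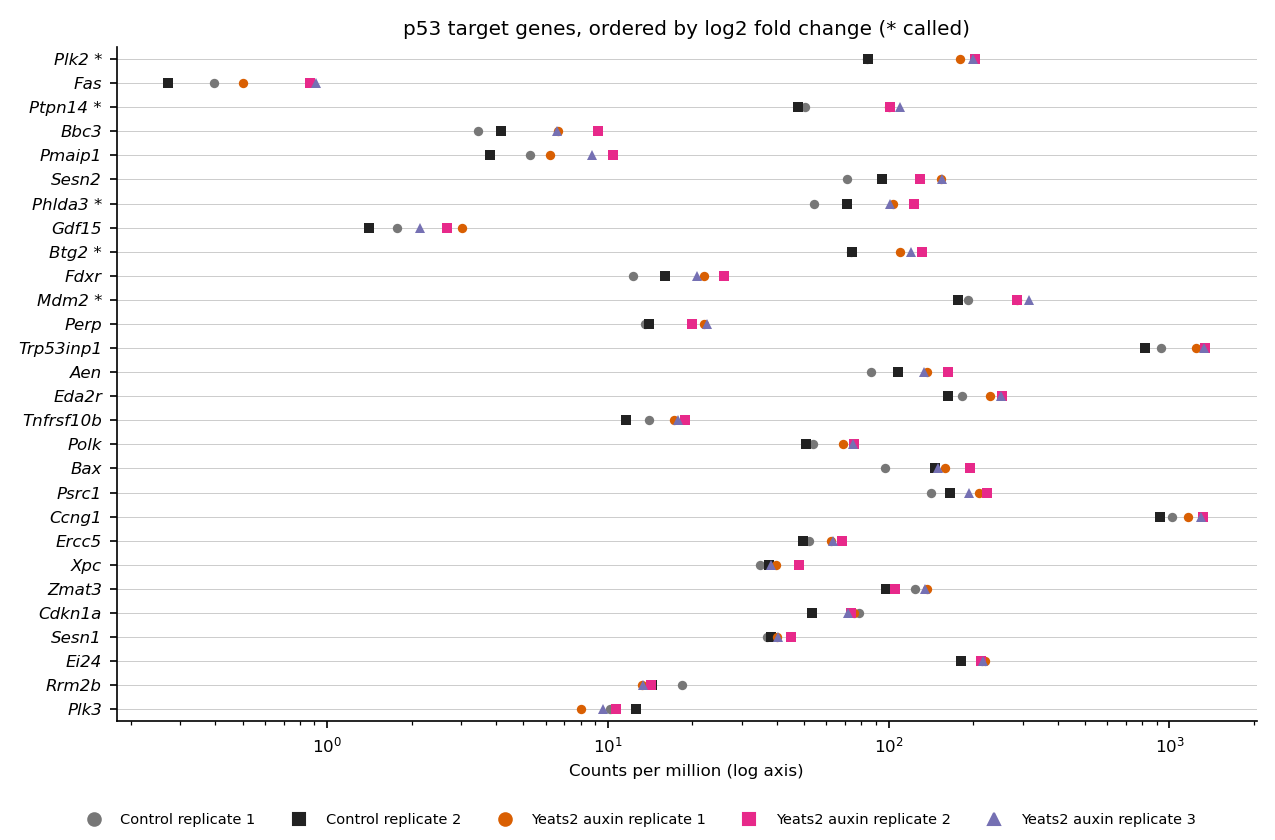
CPM (x axis, log scale) in each of the 5 libraries for the 28 p53 target genes tested, ordered by log2 FC from the highest at the top. Asterisks mark the 5 genes that rose. For *Plk2*, *Ptpn14*, *Btg2* and *Mdm2* the controls (grey and black) nearly coincide below the Yeats2 auxin libraries, while for *Cdkn1a* near the bottom the groups overlap.

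Promoters were read for sites of this factor. RefSeq gives a window of 250 bases before to 50 after the annotated start (GRCm38.p6) for 21 of the 28 targets, 40 of the 58 genes that rose, 13 of the 20 that fell and 11380 of the genes tested. The p53 consensus site, 2 runs of 10 bases without a gap, was searched with at most 2 mismatches and none at the central C and G of each run. Since the site is a palindrome, both strands are covered. It was found in 0.51% of the windows of all genes tested, in 2 of the 21 targets, in 2 of the 40 genes that rose and in 0 of the 13 that fell. The matches are shown because they set the sequence beside the level of the gene, in the direction of the gene and with the central 4 bases of each run in capitals:
Ccng1: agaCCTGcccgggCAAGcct
Cdkn1a: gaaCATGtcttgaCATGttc
Trp73: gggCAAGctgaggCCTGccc
Ms4a10: gatCTAGtccagaCATGcat

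The *Ccng1* match (chr11:40755462-40755481, minus strand) and the *Cdkn1a* match (chr17:29090928-29090947, plus strand) have 1 mismatch each. They begin 195 and 51 bases before an annotated start. *Ccng1*, which encodes cyclin G1, had 1020 and 929 CPM in the controls and 1160, 1320 and 1300 CPM in Yeats2 auxin and was called after the correction alone (adjusted P = 0.184 as measured and 0.0291 corrected), while *Cdkn1a* was not called in either. *Trp73* (chr4:154097220-154097239, minus strand) and *Ms4a10* (chr19:10974781-10974800, minus strand) have 2 mismatches each. *Trp73*, which encodes the p53 relative p73, rose from 5.48 and 6.08 CPM to 13.2, 13.5 and 15.3 CPM (log2 FC 1.28 ± 0.17, adjusted P = 0.0204), and *Ms4a10*, a gene of the membrane-spanning 4A family, rose from 7.99 and 8.84 CPM to 16.5, 17.2 and 16.5 CPM (0.99 ± 0.17, adjusted P = 0.0382). A match is a string of letters and not a measured site. The same windows differed in CpG content. The ratio of observed to expected CpG had a median of 0.60 in the genes that rose and 0.79 in those that fell, beside 0.74 over all genes tested, and lay under 0.5 in 16 of 40, 2 of 13 and 23.2% of windows. TATAAA on either strand was present in 3 of 40, 1 of 13 and 8.90%.

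Ribosomal protein mRNAs were mostly lower. The cytosolic ribosome is built from ribosomal RNA and a protein set whose genes are among the most active in ESCs, and their mRNAs begin with a terminal oligopyrimidine (TOP) tract. Of 78 genes tested, 3 fell (*Rpl13*, *Rpl26* and *Rps24*), 0 rose and 64 had a negative log2 FC, while 0.114% of all genes tested fell. An unadjusted P under 0.05 was reached by 32 of the 78, all downward, beside 1224 downward of all 17532 genes tested. The median log2 FC of the 78 was -0.37, beside -0.01 over all genes tested, and -0.44 after the correction. It moved from -0.50 without Control replicate 1 to -0.26 without Control replicate 2, and relative to the mean of the controls was -0.39, -0.19 and -0.55 in the 3 Yeats2 auxin libraries. After the correction 5 were called, while DESeq2 and limma-voom called 13 and 21, all lower. The summed level of the 78 genes was 20100 and 24500 CPM in the controls and 17300, 20700 and 16400 CPM in Yeats2 auxin, so the groups overlapped. The highest sums were those of Control replicate 2 and Yeats2 auxin replicate 2, the libraries with the largest shares of reads aligned to several places, and the part of those reads in the result was not tested.

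*Rps24* fell from 1210 and 1090 CPM to 612, 670 and 588 CPM (log2 FC -0.88 ± 0.13, adjusted P = 0.0241), *Rpl13* from 345 and 342 CPM to 164, 173 and 146 CPM (-1.09 ± 0.15, adjusted P = 0.0204), and *Rpl26* from 750 and 784 CPM to 379, 445 and 329 CPM (-1.0 ± 0.17, adjusted P = 0.0382). Controls lay close together for all 3, and the Yeats2 auxin libraries did not overlap with them, as for every called gene. *Rpl31* and *Rpl32* (corrected log2 FC -0.97 and -0.93) were added by the correction. The members did not move alike. *Rpl4* had 2610 and 2900 CPM in the controls against 2760, 3050 and 2770 CPM (0.05 ± 0.12), and *Rplp1* differed between the controls themselves, with 79.5 and 224 CPM. Ribosomal protein genes have many processed pseudogenes, and reads that align equally well to a copy are not counted. In the annotation 6 named pseudogenes each were found for *Rpl13* and *Rpl26* and 2 for *Rps24*, and *Rpl31-ps8* was the only pseudogene among the 78 calls (log2 FC -1.29 ± 0.17), so levels of these genes are uncertain.

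**Figure D5:**
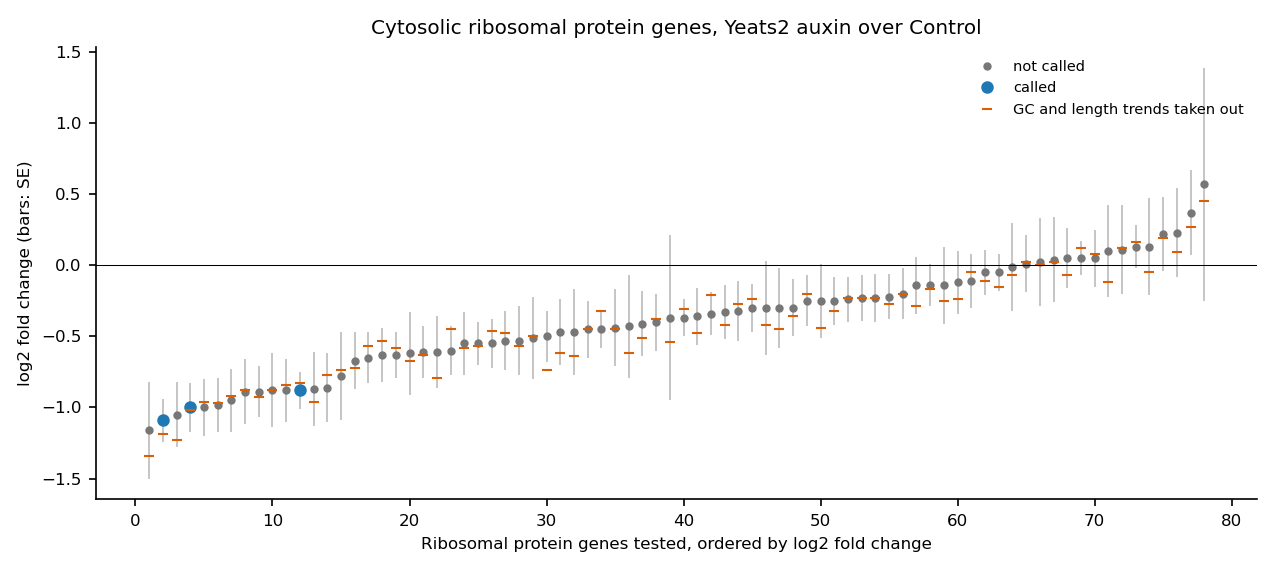
log2 FC of Yeats2 auxin over Control for the 78 ribosomal protein genes tested, ordered from the lowest. Circles with bars are values with their SE, blue circles the 3 genes that fell and orange dashes the values after the trends on GC content and exon length were taken out. Most circles lie below 0, with values from -1.16 to 0.57.

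Other parts of the translation machinery were measured with the same scale. Of 7 ribosomal protein paralogs, *Rpl22l1* fell and the median was -0.21, and after the correction *Rpl7l1* was called as well (corrected log2 FC -0.49). Of 17 other TOP mRNAs, edgeR called 0, with 4 at an unadjusted P under 0.05, and DESeq2 and limma-voom called 2 each. The median of the 17 was -0.16, and -0.06 after the correction. It was -0.10 without Control replicate 1 and -0.29 without Control replicate 2. *Eef1g*, a subunit of the elongation factor that recharges EF1A, had 195 and 217 against 126, 131 and 113 CPM (-0.74 ± 0.17, adjusted P = 0.0916), and *Naca*, a nascent chain chaperone gene, had 193 and 183 against 119, 132 and 130 CPM (-0.56 ± 0.12, adjusted P = 0.0693). Both were called after the correction. *Eef1a1*, the most abundant elongation factor gene, differed by 0.09 ± 0.13.

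Few cell cycle genes beyond *Ccne2* were called. Of 19 regulators of the G1 to S transition, *Ccne2* was the only one called by edgeR and the median was -0.01, while DESeq2 called 2 higher and 2 lower and limma-voom 1 higher and 2 lower. *Ccne1*, which encodes the other cyclin E, had 196 and 225 CPM in the controls and 193, 184 and 186 CPM in Yeats2 auxin (-0.16 ± 0.11, adjusted P = 0.506). *E2f3*, an E2F transcription factor gene, had 59.0 and 52.1 against 37.1, 35.2 and 37.2 CPM (-0.60 ± 0.13, adjusted P = 0.0739) and was called after the correction (adjusted P = 0.0291), while *E2f1* had 21.2 and 20.4 against 32.6, 33.4 and 30.9 CPM (0.64 ± 0.14, adjusted P = 0.0854). The E2F genes thus had values of both signs. Of 20 DNA replication genes and 20 mitosis genes edgeR called 0, with 5 and 4 at an unadjusted P under 0.05 and medians of -0.02 and 0.08, DESeq2 called 2 and 1, and limma-voom 3 and 1. *Orc6*, a subunit of the origin recognition complex, fell from 156 and 161 CPM to 92.0, 106 and 95 CPM (-0.70 ± 0.12, adjusted P = 0.0382), and its call was lost after the correction (adjusted P = 0.0575). *Fam111a*, which encodes a protease that acts at replication forks, fell from 51.2 and 43.6 CPM to 26.7, 25.2 and 23.4 CPM (-0.92 ± 0.14, adjusted P = 0.0271).

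Pluripotency genes were not called. Of 20 genes of the naive and core network edgeR, DESeq2 and limma-voom called 0, 2 had an unadjusted P under 0.05 and the median log2 FC was -0.04 (-0.14 after the correction). *Nanog* had 772 and 736 CPM in the controls and 662, 561 and 646 CPM in Yeats2 auxin (-0.28 ± 0.12, adjusted P = 0.325). *Pou5f1*, which encodes OCT4, had 275 and 420 CPM in the controls and 475, 592 and 460 CPM in Yeats2 auxin (0.55 ± 0.19, adjusted P = 0.213), and the gap between the controls was larger than that between Control replicate 2 and the nearest Yeats2 auxin library. *Esrrb* differed by 0.04 ± 0.20, with 371 CPM in Yeats2 auxin replicate 2 and 536 and 588 CPM in the other two. In bulk RNA, fewer cells of a type and less RNA per cell cannot be told apart.

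Genes of other cell states were mostly weak and not called. Among 7 genes of the primed state the median was -0.28, and 0.05 without Control replicate 2, so its direction rested on that library. *Dnmt3b*, a de novo DNA methyltransferase gene, had 127 and 146 against 207, 197 and 194 CPM (0.55 ± 0.12, adjusted P = 0.0739), which DESeq2 and limma-voom called. *Otx2* had 7.84 and 10.3 against 5.45, 6.59 and 5.42 CPM. Medians were -0.47 for 6 neuroectoderm, -0.10 for 5 mesendoderm, 0.32 for 7 endoderm, 0.47 for 6 trophoblast and -0.08 for 4 fibroblast genes. The size of these medians moved with single libraries, and the direction changed for the neuroectoderm and fibroblast genes. Over the fits that left out a library, mesendoderm medians stayed negative (-0.22 to -0.06). Those of endoderm (0.14 to 0.42) and trophoblast genes (0.25 to 0.66) stayed positive. Without Control replicate 1 the medians were 0.06 for neuroectoderm, -0.22 for mesendoderm and 0.14 for endoderm genes. Without Control replicate 2 they were -0.22 for mesendoderm and 0.14 for fibroblast genes. That of the mesendoderm genes was -0.06 without Yeats2 auxin replicate 1 or 2 and -0.17 without replicate 3, that of the fibroblast genes -0.03 without replicate 2 and 0.03 without replicate 3, and that of the trophoblast genes 0.25 without replicate 3. None of these 28 genes was called by edgeR, DESeq2 or limma-voom, and 4 had an unadjusted P under 0.05. *Sox1* of the neuroectoderm had 5.77 and 4.49 against 2.90, 2.03 and 2.77 CPM (-1.0 ± 0.51), and *Eomes* of the mesendoderm 9.77 and 8.30 against 5.18, 5.07 and 7.20 CPM (-0.64 ± 0.20). Of 6 genes of the 2-cell-like state, a rare state of ESCs, 0 were called by any of the 3 tools and 1 had an unadjusted P under 0.05. Their median of 0.67 rested on levels of at most 1.88 CPM and was 1.08 without Control replicate 1. Of 13 germline genes *Tex101* was the only one called by edgeR, DESeq2 called 1 and limma-voom 0, and the median was 0.33, which was 0.17 when Control replicate 2 was left out and 0.20 when Yeats2 auxin replicate 2 was.

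Among metabolic and stress genes edgeR made a single call. Of 21 hypoxia and glycolysis genes *Bnip3* fell and the median was -0.16, and DESeq2 and limma-voom called 3 each, all lower. *Pdk1*, which encodes an inhibitor of pyruvate dehydrogenase, had 76.9 and 70.6 against 49.3, 46.4 and 45.2 CPM (-0.65 ± 0.16, adjusted P = 0.111), and *P4ha1*, a collagen prolyl hydroxylase gene, had 39.1 and 39.6 against 25.7, 27.6 and 25.9 CPM (-0.58 ± 0.13, adjusted P = 0.0958). *Ldha* and *Aldoa*, glycolysis genes, differed by -0.24 ± 0.26 and 0.14 ± 0.16. Medians were -0.11 for 23 cholesterol synthesis genes, 0.01 for 20 targets of ATF4, -0.11 for 10 genes of the unfolded protein response, 0.01 for 9 targets of NRF2, 0.02 for 7 targets of the aryl hydrocarbon receptor, -0.01 for 9 ERK-responsive genes, -0.01 for 9 WNT targets and 0.18 for 5 interferon-stimulated genes. Values this near 0 moved with single libraries, and without Control replicate 2 the medians of the ATF4, ERK and WNT lists were 0.23, -0.17 and 0.15. edgeR called 0 of these 91 genes, 1 of which is in 2 of the lists, with 15 at an unadjusted P under 0.05, and DESeq2 and limma-voom called 3 each. *Sesn2*, a target of both p53 and ATF4, had 71.3 and 94.6 against 153, 129 and 155 CPM (0.81 ± 0.17, adjusted P = 0.0728).

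Transcripts of mitochondria and of histone genes followed single libraries. The 7 mitochondrially encoded protein genes tested had a median log2 FC of -0.44, and relative to the mean of the controls the median was -1.40 in Yeats2 auxin replicate 2 but -0.23 and -0.13 in replicates 1 and 3. Without Yeats2 auxin replicate 2 the median log2 FC was -0.19, and without Control replicate 1 it was -0.27. *mt-Nd1* had 2500 and 1910 CPM in the controls and 1770, 766 and 1780 CPM in Yeats2 auxin (-0.61 ± 0.29, adjusted P = 0.364). The 58 histone genes of the replication-dependent class had a median of 0.14, which was -0.30 without Control replicate 1 and 0.80 without Control replicate 2. *Hist1h1c*, a linker histone gene, had 70.5 and 181 CPM in the controls and 118, 190 and 112 CPM in Yeats2 auxin, so that Control replicate 2 and Yeats2 auxin replicate 2 were alike. None of these 65 genes was called by edgeR, DESeq2 or limma-voom, and 2 had an unadjusted P under 0.05.

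The remaining calls are given as single genes, chosen after their values were seen. Several are known in other settings as p53 targets. *Lpin1*, which encodes a phosphatidate phosphatase, rose from 57.3 and 61.1 CPM to 123, 106 and 121 CPM (0.98 ± 0.12, adjusted P = 0.0151). *Acad11*, an acyl-CoA dehydrogenase gene, rose from 46.7 and 47.6 CPM to 73.8, 81.7 and 78.8 CPM (0.73 ± 0.12), *Slc19a2*, a thiamine transporter gene, from 128 and 134 CPM to 198, 193 and 208 CPM (0.61 ± 0.11), and *Ptprv*, an annotated processed transcript of a receptor phosphatase gene, from 16.3 and 23.2 CPM to 43.6, 56.0 and 48.7 CPM (1.32 ± 0.20). *Pidd1*, which encodes the core of the PIDDosome, rose by 0.78 ± 0.14, and its call was lost after the correction (adjusted P = 0.171). For all 5 genes the Yeats2 auxin libraries lay above both controls, as for every called rise.

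Further rises included *Nefl*, the light neurofilament gene, from 39.6 and 37.5 CPM to 73.6, 75.8 and 82.3 CPM (1.00 ± 0.14), and *Slc5a1*, a glucose transporter gene, from 7.99 and 9.48 CPM to 22.1, 23.7 and 20.3 CPM (1.33 ± 0.23). Their calls were kept after the correction. Among the falls outside the lists, *Sohlh2*, which encodes a germ cell transcription factor, went from 32.7 and 35.8 CPM to 16.7, 21.1 and 19.1 CPM (-0.85 ± 0.16, adjusted P = 0.0493). The noncoding genes *Snhg17*, *Platr14* and *Srrm4os* fell by 0.87, 0.85 and 0.95 on the log2 scale. *Nae1*, a subunit of the enzyme that activates NEDD8, fell from 112 and 111 CPM to 75.0, 76.4 and 72.3 CPM (-0.58 ± 0.10), and its call was lost after the correction (adjusted P = 0.159).

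Called genes were spread over the genome. Each of the 19 autosomes held at least 1 and at most 7 called genes, and chromosome X held 0 of its 589 genes tested. Median log2 FC per autosome lay between -0.10 and 0.05, and between -0.03 and 0.03 after the correction. Chromosome X had a median of -0.11, which was -0.03 after the correction.

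YEATS2 depletion was then compared with ZZZ3 depletion directly, as a contrast without the controls in the fit of all 8 libraries. A fit of only the compared groups also gave 0 calls by edgeR. In the fit of all 8 libraries edgeR called 0 of the 17532 genes (0.0%), with 1095 at an unadjusted P under 0.05, and DESeq2 and limma-voom called 3 and 1. The comparisons of the 2 depletions with control share the controls, so values are set side by side. *Galnt6* had 109, 99.9 and 95.3 CPM in the Zzz3 auxin libraries beside 90.2, 113 and 97.3 CPM in Yeats2 auxin, *Plk2* had 219, 218 and 174 CPM beside 180, 203 and 200 CPM, *Ccne2* had 24.8, 26.3 and 29.0 CPM beside 21.9, 25.4 and 21.3 CPM, and *Rps24* had 516, 670 and 638 CPM beside 612, 670 and 588 CPM. The libraries of both depletions overlapped in each of these 4 genes. *Lrrc15* had 9.13, 9.16 and 11.0 CPM in Zzz3 auxin beside 5.88, 4.88 and 5.03 CPM in Yeats2 auxin, without overlap (log2 difference of Yeats2 auxin minus Zzz3 auxin -0.89, adjusted P = 0.779). *Yeats2* had 133, 119 and 123 CPM in Zzz3 auxin, above every control and Yeats2 auxin library. *Zzz3* had 77.5, 96.9 and 112 CPM in Zzz3 auxin beside 189, 183 and 191 CPM in Yeats2 auxin, without overlap (log2 difference 0.98, adjusted P = 0.14 by edgeR).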

How the data were processed

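RNA was extracted from ESC cultures, depleted of ribosomal RNA and made into stranded libraries, although the labels name poly(A) RNA as the molecule. The deposited values were raw read counts per gene, which the authors made with STAR 2.5.3a on mm10 and HTSeq 0.6.1p1 in union mode after removal of ribosomal RNA reads, and the strand option is not stated in the sources used here. The 5 tallies of unassigned reads were left out. Symbols, positions and exon GC content came from GENCODE annotation of GRCm38 (55141 of 55401 genes matched) and promoters from RefSeq.

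The 8 libraries were fitted together by the robust quasi-likelihood test of edgeR 4.0.16 in R 4.3.3, with a mean per group, filterByExpr and TMM. Two-sided P values were adjusted with the Benjamini-Hochberg method over the 17532 genes tested, and standard errors (SE) were obtained by dividing the absolute log2 FC by the root of the F statistic. Genes with an adjusted P under 0.05 were called. The correction for GC content and exon length subtracted each library's lowess trend (span 0.3) through offsets. Alternatives used DESeq2 1.42.0, limma 3.58.1, other filters and samples, the replicate number as a block, and each library left out. Figures were drawn with matplotlib 3.10.9. The scripts were tested on simulated data.

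Named genes were ATAC subunits, the 15 DEGs with the largest rise and those with the largest fall at a mean of at least 1 CPM without overlap and not annotated as pseudogenes, the called members of 30 gene lists or 2 examples of a list without a call, and the 5 called genes with the highest level. Some genes under this rule are not reported here. Other genes were chosen after their values were seen. The comparison, the lists and this rule were chosen with earlier results of these data known. Between 20750126 and 27884704 reads per compared library leave small counting error in all but weak genes, and the 2 controls limit the precision. Intervals and errors cover the spread between these libraries.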

Additional observations from a re-analysis of the deposited data

How the results depend on the processing

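The number of called genes depended on the tool, the filter and the libraries. The sign of the 78 main calls did not change, which their non-overlapping groups nearly fixed in advance. Against 78 called genes and 46 DEGs, DESeq2 gave 398 and 101, limma-voom 375 and 94, no filter 553 and 178, and a fit of only the compared groups 454 and 133. A fold of 1.2 as the null (glmTreat) left 14 and 13, and the GC and length correction gave 130 and 47. The share of calls that were higher was 74.4% in the main fit, 64.3% with DESeq2, 63.2% in the fit of only the compared groups, 64.6% after the correction and 49.9% with limma-voom, and 7 of the 14 glmTreat calls were higher. Leaving out each library in turn gave 0 to 217 calls and 0 to 80 DEGs, with the lowest values without Control replicate 1 or Yeats2 auxin replicate 3 and the highest without Zzz3 auxin replicate 3. In these fits a group left with 1 library is assumed to vary like the others. With the correction, leaving out Control replicate 1 or Control replicate 2, which was added after seeing the data, gave 0 calls and 0 DEGs. Other size factors (77 calls), a mean of at least 1 CPM (66) and protein-coding genes alone (61) stayed within 1.5 times the main count. The cause was not tested for any of these changes.

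The labels number the replicates, but the numbers are not stated to mark a shared day or batch. Deviations of same-numbered libraries from their group means correlated across 14023 genes at 0.134 and 0.304 between Control and Yeats2 auxin, 0.119 and -0.333 between Control and Zzz3 auxin, and 0.0206, 0.0479 and -0.0664 between the depletions, so the numbers were not taken as pairs. With the replicate number as a block there were 32 calls and 28 DEGs over all groups, of which 30 were among the 78, 1396 calls and 258 DEGs in the compared groups alone, and 63 calls and 28 DEGs when the block was joined to the GC and length correction.

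The 0 calls between YEATS2 and ZZZ3 depletion became 3 with DESeq2, 1 with limma-voom and 117 without a filter, and ranged from 0 to 1 over the fits that left out a library. Of the 83 genes named by rule, 7 had log2 FC of both signs over the alternatives, none of them called in the main fit. Among the ATAC genes, that of *Mbip* turned positive with the GC correction (0.02, and 0.00 on the longest transcript), with the GC and length correction (0.05, and 0.00 and 0.09 without Control replicate 1 or 2) and with the block joined to it (0.04), and that of *Zzz3* turned negative with the block (-0.04). The others were *Map2*, *T*, *Dnajb9*, *Tiparp* and *Notum*. *Esrrb* also changed sign, to -0.14 after the GC and length correction, and *Kat14* was called in the compared groups alone, with and without the block (0.50 and 0.49).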

Other observations

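The correction for GC content and exon length added 65 genes to the calls, 37 higher and 28 lower, which the comparison as measured did not hold. Among the rises were *Neurod1*, a transcription factor gene of neurons and endocrine cells (corrected log2 FC 1.60, adjusted P = 0.0255 by edgeR), *Ddit4l*, which encodes an inhibitor of mTORC1 signalling (1.19, 0.0248), *Fbxw7*, which encodes the substrate receptor of a ubiquitin ligase for cyclin E (0.76, 0.0241), *Rbm38*, an RNA-binding protein gene (0.77, 0.0418), and *Rhox5*, a homeobox gene of the X chromosome (1.43, 0.0467). Among the falls were *Eif4g3*, a translation initiation factor gene (-1.42, 0.0448), *Cox5b* and *Atp5k*, genes of the respiratory chain and ATP synthase (-0.77, 0.0273 and -0.62, 0.0467), and the ESC noncoding gene *Lncenc1* (-0.59, 0.0276). These genes were chosen after their values were seen.

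Genes of chromosome Y had the highest chromosome median, 0.97 over 11 genes tested (0.82 after the correction), with 0.56, 0.65 and 0.61 in the 3 Yeats2 auxin libraries relative to the mean of the controls. The median of 0.97 was the value of *Gm29650*, a noncoding gene with 0.272 to 0.687 CPM in the 5 libraries. *Uty* had 71.9 and 59.9 CPM in the controls and 88.7, 92.9 and 87.9 CPM in Yeats2 auxin (log2 FC 0.45). *Ddx3y* had 182 and 157 against 199, 233 and 202 CPM (0.32), and *Eif2s3y* had 90.6 and 84.7 against 124, 138 and 114 CPM (0.52). The groups did not overlap for *Uty*, *Ddx3y* and *Eif2s3y*, as for 19.3% of all genes tested in the upward direction. None of the 11 was called by edgeR, and 3 had an unadjusted P under 0.05. Whether the controls and the Yeats2 auxin cultures came from the same line is not given in the labels.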
